A study of Mus musculus with 56 samples.

Results

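Krt1, Krt10, Ivl, Sbsn, Spink5, Krtdap, Dmkn, Lor, Flg and Cnfn are 10 genes of cornifying keratinocytes that are also transcribed in the thymus, in medullary thymic epithelial cells (mTECs) that resemble epidermis. They were taken as a named set and found by their Ensembl identifiers among the 50600 genes of the deposited tables. All 10 were present. RNA was measured in 56 samples of sorted thymic epithelium, 28 of mTECs and 28 of cortical thymic epithelial cells (cTECs), from the thymi of mouse dams around parturition. The dams were B6.SJL females, which carry the CD45.1 allele, mated with BALB/cJ males, and each sample came from 1 mouse. Epithelial cells were sorted as EpCAM+ CD45- and divided by binding of the lectin UEA1, which marked the mTECs and left the cTECs unstained. The groups were age-matched non-pregnant controls (NPC), late gestation (D-2, gestation day 18) and 14 time points after birth, D0 to D28, with the pups removed at birth so that the dams did not nurse. Each cell type had 3 samples from D12, D6, D3, D0, D-2 and NPC, and 1 sample from every other time point. Samples of D0 to D12 formed the early phase (18 samples per cell type) and those of D16 to D28 the late phase (4 samples per cell type).

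In the epidermis, basal keratinocytes leave the cell cycle and replace their keratins with Krt1 and Krt10, which pair into the filaments of the suprabasal layers. Involucrin, loricrin and cornifelin (Ivl, Lor, Cnfn) are then cross-linked by transglutaminases into the cornified envelope, filaggrin (Flg) bundles the keratin filaments, and the serine protease inhibitor encoded by Spink5 restrains the kallikreins that shed the outermost cells. Suprabasin, dermokine and keratinocyte differentiation-associated protein (Sbsn, Dmkn, Krtdap) are secreted by differentiating keratinocytes. In the thymic medulla, mTECs transcribe many genes of peripheral tissues and so present them to developing T cells. Some mTECs past the stage that expresses Aire take on the program of another epithelium, and those that resemble cornified keratinocytes occur in Hassall's corpuscles.

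The 10 genes lie at several places of the mouse genome (GENCODE M21, GRCm38). Sbsn (chr7:30751471-30756134), Dmkn (chr7:30763756-30781063) and Krtdap (chr7:30787896-30791097) are neighbours on the plus strand of chromosome 7, and Cnfn (chr7:25367620-25369724, minus strand) is elsewhere on the same chromosome. Ivl (chr3:92570902-92573735) and Lor (chr3:92080271-92083142), both on the minus strand, and Flg (chr3:93273523-93293686, plus strand) lie on chromosome 3, in the epidermal differentiation complex. Krt10 (chr11:99385254-99389364) and Krt1 (chr15:101845426-101850794) are on the minus strands of chromosomes 11 and 15, each in a keratin cluster. Spink5 lies in none of these groups.

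RefSeq promoters (GRCm38.p6) were matched for 8 of the 10 genes. They are shown for 4 genes whose levels are compared below, because the genes of one differentiation program differ in the letters before their start sites. Each is the 250 bases before the RefSeq start site, written 5′ to 3′ on the strand of the gene, from chr7:30787655-30787904 (Krtdap, plus), chr3:92573736-92573985 (Ivl, minus), chr7:30751221-30751470 (Sbsn, plus) and chr11:99389365-99389614 (Krt10, minus). Capitals mark the AP-1 motif TGANTCA and the TATA motif TATAAA, which do not overlap each other here.
Krtdap: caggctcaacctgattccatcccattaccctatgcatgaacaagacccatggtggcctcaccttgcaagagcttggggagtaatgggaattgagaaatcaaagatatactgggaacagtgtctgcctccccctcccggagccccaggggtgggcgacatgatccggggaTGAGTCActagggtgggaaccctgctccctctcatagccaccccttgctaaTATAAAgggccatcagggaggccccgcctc
Ivl: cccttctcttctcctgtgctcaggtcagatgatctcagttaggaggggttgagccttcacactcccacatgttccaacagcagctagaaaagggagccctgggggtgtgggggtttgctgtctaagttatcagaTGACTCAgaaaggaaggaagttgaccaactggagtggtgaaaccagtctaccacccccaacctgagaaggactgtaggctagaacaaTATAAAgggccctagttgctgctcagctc
Sbsn: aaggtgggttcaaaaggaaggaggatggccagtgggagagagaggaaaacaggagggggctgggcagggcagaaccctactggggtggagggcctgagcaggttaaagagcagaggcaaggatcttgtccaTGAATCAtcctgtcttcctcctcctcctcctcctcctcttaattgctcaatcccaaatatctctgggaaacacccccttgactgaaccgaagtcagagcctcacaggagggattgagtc
Krt10: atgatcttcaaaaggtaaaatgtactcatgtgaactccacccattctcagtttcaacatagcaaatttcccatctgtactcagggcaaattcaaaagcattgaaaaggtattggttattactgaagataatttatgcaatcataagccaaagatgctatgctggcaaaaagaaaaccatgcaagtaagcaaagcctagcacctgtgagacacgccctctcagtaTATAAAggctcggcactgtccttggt

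AP-1 factors are activators of epidermal differentiation genes. Searched on both strands, the AP-1 motif was present in 6 of the 8 promoters (Lor, Ivl, Flg, Sbsn, Dmkn and Krtdap), against 6.75% of 32851 mouse promoters cut to the same length. It began 81 bases before the start site of Krtdap, 116 before that of Ivl and 119 before that of Sbsn, and the letters were not in the window of Krt10 or Cnfn. The TATA motif was present in 5 of the 8 (Lor, Ivl, Flg, Krtdap and Krt10), against 12.4% of all promoters. The grainyhead motif AACCNGTT was in none of the 8, against 1.79% of all promoters. These matches describe letters only.

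Total expected counts ranged from 4561208 to 108547384 in mTECs and from 6470058 to 44409019 in cTECs. The sort was reflected in the markers: Aire had a mean of 112.5 FPKM in mTECs and 6.51 in cTECs, and Prss16, a protease of cTECs, had 183.2 in mTECs and 1714 in cTECs. All 9 mTEC markers followed had a higher fitted level in mTECs, but others were less separated than Aire. Ccl21a had a mean of 11620 FPKM in mTECs and 4004 in cTECs, Krt5 2854 and 1654, and Cldn3 17.1 and 12.7. The cTEC samples thus also held RNA of mTEC markers, and its part in the levels below was not tested. The 7 libraries with fewer than 15000 genes at 1 count or more (mTEC D0 replicate 2, mTEC D3 replicates 1 and 2, cTEC NPC replicate 2, cTEC D3 replicate 2, cTEC D4 and cTEC D20) are called the libraries of few genes, a cut set after seeing the data that has no gap at it (14789 genes just below and 15096 just above). All 10 genes were above 0 in 22 of 28 mTEC libraries and in 8 of 28 cTEC libraries. Levels are given in FPKM, fragments scaled to effective transcript length and library size, as deposited. RSEM assigned reads to isoforms, so the effective length of a gene changed between libraries. Across mTECs it changed by 21.4-fold for Flg, 2.49-fold for Sbsn, 2.01-fold for Dmkn, 1.97-fold for Krtdap, 1.77-fold for Krt10 and 1.40-fold for Cnfn. An FPKM of these genes, of Flg most, therefore depends on which isoform took the reads. The tests between groups used expected counts, which do not depend on that length, and the correlations used FPKM.

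In mTECs the secreted products Krtdap and Dmkn were at the top of the order and the envelope genes Lor and Ivl at its foot (plot of levels by time point). Krtdap had the highest mean at 119.1 ± 41.8 FPKM (SD, n = 28 samples), followed by Dmkn at 38.2 ± 17.6 FPKM. Krt10 (22.6 ± 17.2 FPKM), Spink5 (17.9 ± 11.8 FPKM) and Sbsn (17.4 ± 10.2 FPKM) came next and differed from each other by less than their SDs. Cnfn (5.69 ± 4.93 FPKM), Flg (5.63 ± 4.83 FPKM) and Krt1 (5.42 ± 3.77 FPKM) also differed by less than their SDs, and Lor (2.25 ± 1.98 FPKM) and Ivl (2.01 ± 1.36 FPKM) were lowest. Differences between genes were not tested. Between libraries Krt10 spanned 3.49 to 74.0 FPKM and Krtdap only 43.2 to 204.6 FPKM. The SDs include the changes with time described below.

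**Figure D1:**
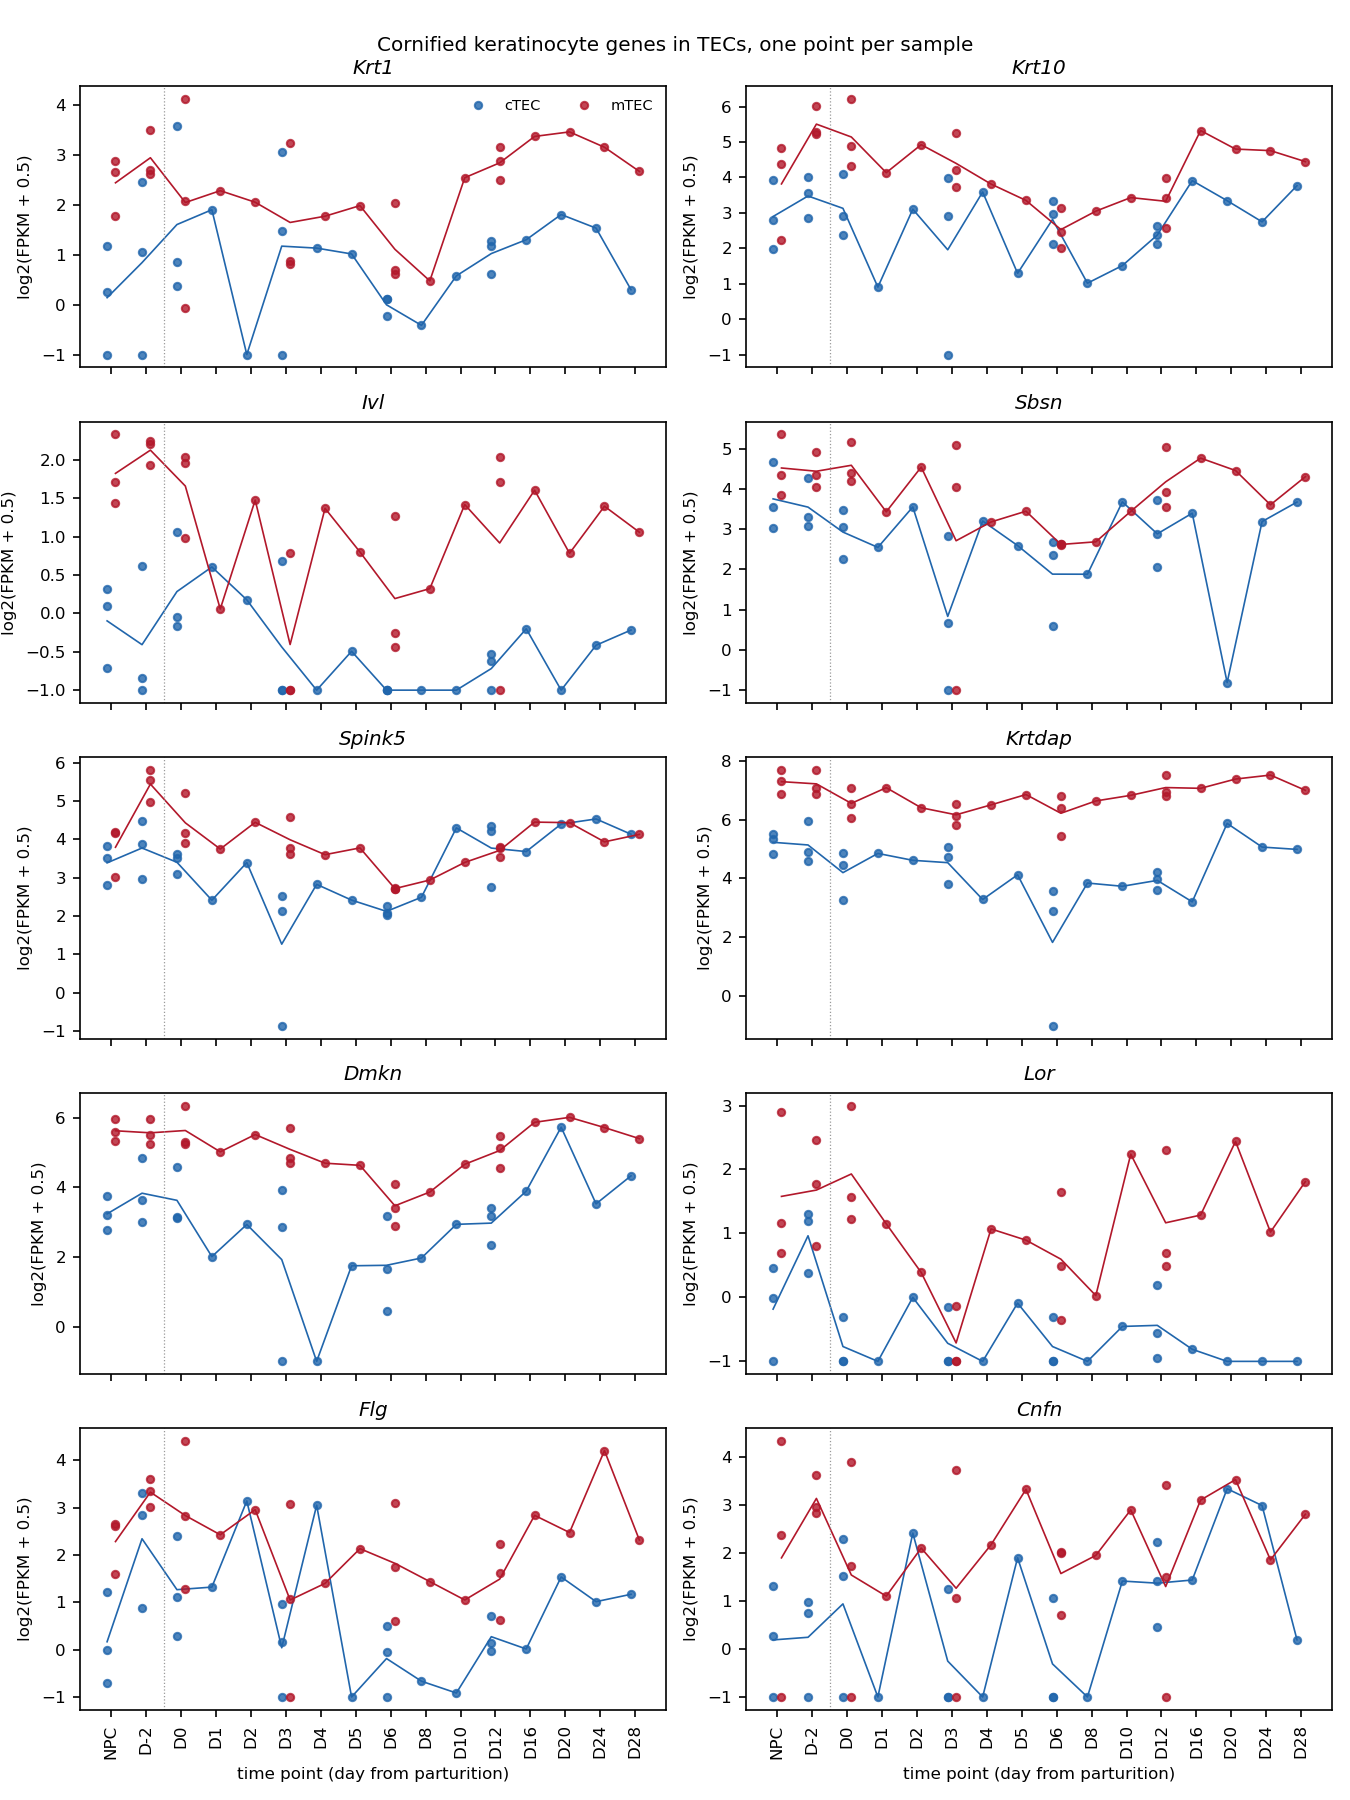
Level of each of the 10 genes as log2(FPKM + 0.5) at the 16 time points, in mTECs (red) and cTECs (blue). Points are single samples, lines join the means, and the dotted line marks parturition. In mTECs Krt10 goes from 36.7 to 63.95 FPKM at D-2 to between 3.49 and 8.32 FPKM at D6.

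Over the 16 time points the highest and lowest means did not fall at the same time for all genes. Krt10, Spink5 and Ivl had their highest mean at D-2, at 46.4, 44.4 and 3.88 FPKM. Krt10, Spink5, Dmkn and Sbsn had their lowest at D6, at 5.59, 6.08, 11.2 and 5.64 FPKM. Ivl, Lor and Krtdap were lowest at D3 (0.41, 0.14 and 72.5 FPKM), where 2 of the 3 mTEC libraries had few genes and listed Ivl and Lor at 0. The highest means of Krt1, Dmkn, Lor and Cnfn were at D20, of Sbsn at D16 and of Krtdap and Flg at D24, each from 1 sample.

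All 10 genes had a higher fitted level in mTECs than in cTECs, and 8 passed the thresholds used throughout, namely an adjusted p (Benjamini-Hochberg) no larger than 0.01 and a 2-fold difference or more (limma-voom over all 56 samples with time point as a term). The share called among all genes was 21.2% in either direction. Lor had the largest log2 fold change, 3.81 (SE 0.55), and was listed at 0 in 13 of 28 cTEC libraries. Ivl was 3.28 (SE 0.52) higher on the log2 scale and was at 0 in 11 of 28 cTEC libraries. Lor and Ivl averaged 0.32 and 0.33 FPKM in cTECs, under the filter of 0.5 FPKM. They entered this comparison, and its 8 calls, through mTECs alone, where they are high. Krtdap was 2.69 (SE 0.22) higher, with a mean of 23.5 ± 14.8 FPKM in cTECs. The log2 fold changes of Flg (2.65), Krt1 (2.14), Krt10 (2.11), Cnfn (1.96) and Dmkn (1.78) had adjusted p-values up to 0.0049 in limma-voom. Without the libraries of few genes 7 members were called, and Cnfn was the call lost (log2 fold change 1.82, adjusted p = 0.012 in limma-voom).

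Spink5 and Sbsn missed the threshold on fold change in limma-voom. Spink5 was 17.9 ± 11.8 FPKM in mTECs and 10.5 ± 6.51 FPKM in cTECs, a log2 fold change of 0.58 (SE 0.17, limma-voom adjusted p = 0.0045). Sbsn was 17.4 ± 10.2 FPKM in mTECs and 7.93 ± 5.44 FPKM in cTECs, a log2 fold change of 0.91 (SE 0.26, adjusted p = 0.0031 in limma-voom). Sbsn passed in the edgeR quasi-likelihood test (log2 fold change 1.07), DESeq2 (1.15) and limma-trend (1.17), each of which called 9 members. On the same strand as Sbsn, Tmem147os overlaps the gene (mean of 5.18 FPKM in mTECs), and reads of the shared bases cannot be told apart. The kallikrein genes Klk5 and Klk7, whose proteases the Spink5 product inhibits, were 5.55 (SE 0.56) and 5.00 (SE 0.41) higher in mTECs on the log2 scale. Both averaged under the filter of 0.5 FPKM in cTECs (0.47 and 0.46 FPKM) and entered this comparison through mTECs alone.

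Between non-pregnant controls and late gestation, Krt10 and Spink5 had the highest ratios of mean FPKM among the 10 genes in mTECs. Krt10 was 20.4, 4.24 and 27.7 FPKM in the 3 NPC samples and 38.5, 63.95 and 36.7 FPKM in the 3 D-2 samples, with every D-2 sample above every control. The log2 fold change was 1.83 (SE 0.54) and did not pass the threshold (adjusted p = 0.22, limma-voom). Without mTEC NPC replicate 2 it was 0.83, and without 1 of the other 5 samples it ranged from 1.71 to 2.38. Spink5 was 17.9, 7.57 and 17.6 FPKM in the controls and 30.7, 55.7 and 46.6 FPKM at D-2, again without overlap, at a log2 fold change of 1.82 (SE 0.35, adjusted p = 0.074 in limma-voom). Flg was the other gene without overlap in FPKM, from 2.53 to 5.76 FPKM in controls and from 7.61 to 11.8 FPKM at D-2, but its log2 fold change from counts was 0.77 (SE 0.48, adjusted p = 0.51 in limma-voom). In TMM-scaled CPM, counts scaled by library size and a TMM factor but not by transcript length, Flg overlapped. It was 6.59, 14.99 and 15.85 in controls and 32.3, 27.7 and 13.4 at D-2. Thus 3 of 10 members, Flg among them, were higher without overlap in FPKM, where 6.28% of the 17743 genes tested were.

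No member passed the thresholds in that comparison, as no gene did (0% of all genes in limma-voom, 2267 of 17743 at an unadjusted p under 0.05). Of the members, 2 had an unadjusted p under 0.05, DESeq2 called 1 (Spink5, adjusted p = 0.00027) and the edgeR quasi-likelihood test called 0. With the spread shared by all 28 mTEC samples, Spink5 passed (log2 fold change 1.83, adjusted p = 0.0038 in limma-voom). The median log2 fold change was 0.57 over the 10 genes, each above 0, and 0.17 over all genes, although 5 of the 10 changed sign under at least 1 alternative. In mean FPKM the ratio of D-2 to NPC was below 1 for Sbsn (0.88), Krtdap (0.95), Dmkn (0.97) and Lor (0.94), and above 1 for the other members. Krt1, Ivl, Sbsn, Krtdap, Dmkn, Lor and Cnfn overlapped between the groups in FPKM. The library mTEC NPC replicate 2 was the lowest of the controls for Krt10, Spink5 and Krt1, and Cnfn was listed at 0 in it.

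Between D-2 and D6 all 10 genes had a lower level in mTECs, and Krt10 and Spink5 fell past the thresholds. Krt10, the acidic keratin of the suprabasal filament, went from 38.5, 63.95 and 36.7 FPKM at D-2 to 8.32, 4.95 and 3.49 FPKM at D6, a log2 fold change of -3.01 (SE 0.40, adjusted p = 0.0094 in limma-voom). Spink5 went from 30.7, 55.7 and 46.6 FPKM to 6.03, 6.18 and 6.02 FPKM, a log2 fold change of -2.81 (SE 0.25, adjusted p = 0.0026 in limma-voom). Every D6 sample lay below every D-2 sample for both genes. The comparisons of D6, D0 and D12 with D-2, and of D-2 with NPC, share the D-2 samples. The 2 called members stood against 0.299% of all 17743 genes, 53 genes of which 35 were lower. The antisense gene Gm11940 overlaps Krt10 and had a mean of 0.132 FPKM.

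**Figure D2:**
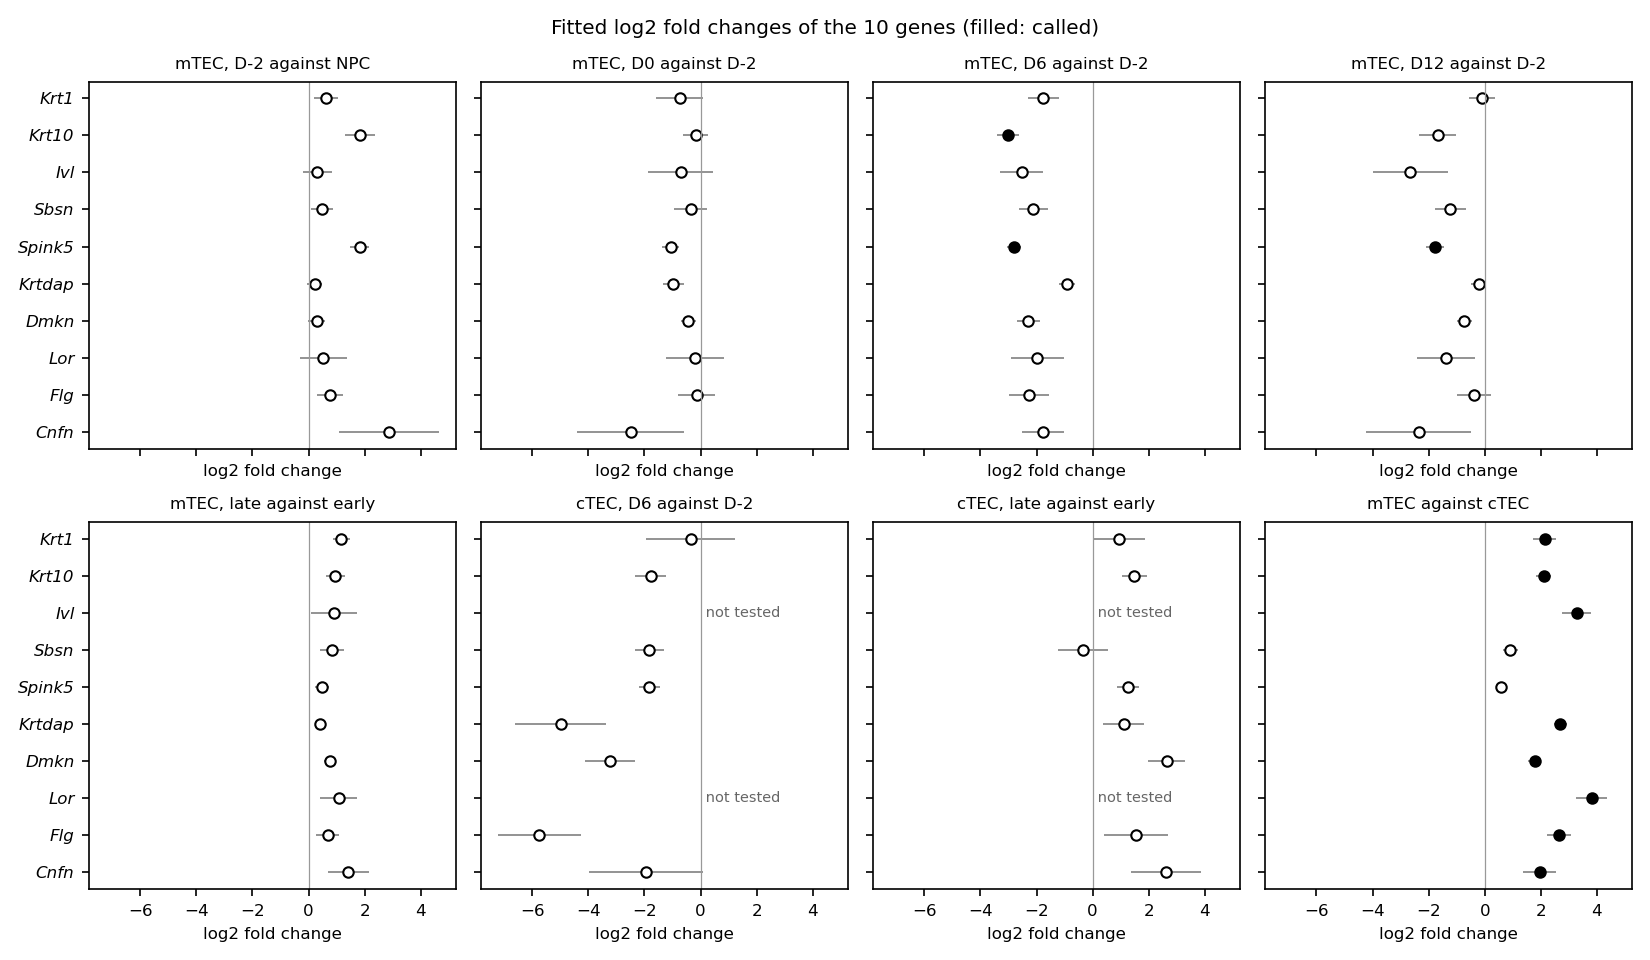
Fitted log2 fold changes (limma-voom) of the 10 genes in 8 comparisons, with bars of 1 SE. Filled points passed the thresholds, and Ivl and Lor were not tested within cTECs. At D6 against D-2 in mTECs every point is below 0, and against cTECs every point is above 0.

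The secreted products had lower fitted levels at D6, and none passed the thresholds in limma-voom. Dmkn went from 37.0, 44.6 and 61.7 FPKM to 16.7, 10.1 and 6.89 FPKM (log2 fold change -2.29, SE 0.42, adjusted p = 0.024 in limma-voom). Sbsn went from 19.96, 16.1 and 29.5 FPKM to 5.65, 5.62 and 5.66 FPKM (log2 fold change -2.11, SE 0.51, adjusted p = 0.065 in limma-voom). Krtdap went from 116.7, 204.6 and 134.5 FPKM to 111.2, 43.2 and 82.9 FPKM (log2 fold change -0.91, SE 0.30, adjusted p = 0.14 in limma-voom). Dmkn was called by the edgeR quasi-likelihood test (adjusted p = 0.0081) and by DESeq2 (adjusted p = 1.2e-08). The mean of Krtdap at D6 was 52.1% of that at D-2, and that of Krt10 was 12.1%.

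Among the genes of the envelope and filament, Krt1 was 6.02, 10.8 and 5.64 FPKM at D-2 and 3.59, 1.11 and 1.02 FPKM at D6 (log2 fold change -1.76, adjusted p = 0.12 in limma-voom). Ivl was 3.32, 4.10 and 4.23 FPKM and then 1.90, 0.34 and 0.24 FPKM (log2 fold change -2.53, adjusted p = 0.12 in limma-voom). Cnfn was 11.7, 7.27 and 6.56 FPKM and then 3.54, 1.12 and 3.48 FPKM (log2 fold change -1.77, adjusted p = 0.22 in limma-voom). These 3 genes did not overlap between the time points, whereas Lor did, at 1.24, 2.93 and 4.99 FPKM and then 2.65, 0.28 and 0.91 FPKM (log2 fold change -1.97, adjusted p = 0.27 in limma-voom).

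Flg also overlapped in FPKM, with 9.69, 11.8 and 7.61 FPKM at D-2 and 8.11, 2.87 and 1.03 FPKM at D6. In TMM-scaled CPM, which are not scaled by transcript length, it was 32.3, 27.7 and 13.4 at D-2 and 6.82, 2.09 and 2.68 at D6, without overlap (log2 fold change -2.28, SE 0.72, adjusted p = 0.12 in limma-voom). In FPKM 8 of 10 members were lower without overlap, where 12.9% of all genes were. An unadjusted p under 0.05 was reached by 9 of 10 members, all but Lor, and by 3596 of all 17743 genes tested (limma-voom). The median log2 fold change was -2.20 over the 10 genes and 0.02 over all genes.

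The calls at D6 depended on the libraries. Leaving out mTEC D6 replicate 1 or replicate 2 left 0 members called, and leaving out any other of the 6 samples left 1, Spink5. Across those 6 fits the log2 fold change of Krt10 ranged from -3.67 to -2.49 and its adjusted p from 0.011 to 0.039 (limma-voom), while that of Spink5 ranged from -3.04 to -2.64 with an adjusted p of 0.0015 to 0.017. Other markers moved between the same libraries. The summed FPKM of 6 cTEC markers was 264.1 to 570.4 in mTECs at D-2 and 1014 to 2536 at D6, against 6023 to 7389 in cTECs at D6, and all 6 markers had higher fitted levels at D6. The summed FPKM of 10 macrophage and dendritic cell markers was 60.2 to 101.8 at D-2 and 17.8 to 58.1 at D6, with fitted levels higher for 3 and lower for 5 of the 8 tested. That of 12 thymocyte markers was 16.9 to 29.6 at D-2 and 27.1 to 37.0 at D6, with fitted levels higher for 9 of the 11 tested, 4 of them with an unadjusted p under 0.05. The part of these in the results was not tested, and in sorted bulk samples fewer cells of a type and less RNA per cell cannot be told apart.

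At parturition no member was separated from late gestation. Every member overlapped between D0 and D-2 in FPKM, and all 10 fitted log2 fold changes were below 0, with a median of -0.58 against -0.10 over all genes, and 5 of the 10 changed sign under at least 1 alternative. Spink5 was 14.6, 36.4 and 17.6 FPKM at D0 (log2 fold change -1.06, SE 0.31, adjusted p = 0.43 in limma-voom). Krtdap was 132.6, 66.0 and 92.0 FPKM (log2 fold change -0.97, SE 0.37, adjusted p = 0.74 in limma-voom). No member was called and 0% of all genes were (limma-voom, with 1136 genes and 2 members at an unadjusted p under 0.05). DESeq2 and the edgeR quasi-likelihood test also called 0 members. The library mTEC D0 replicate 2, one of those with few genes, had the highest Krt10 (74.0 FPKM), Krt1 (16.9 FPKM), Dmkn (80.6 FPKM), Lor (7.49 FPKM) and Flg (20.7 FPKM) of all 28 mTEC samples, and listed Cnfn at 0. In TMM-scaled CPM that library was not the highest for Dmkn (51.4, against 72.2 in mTEC D-2 replicate 3) or Flg (13.6, against 32.3 in mTEC D-2 replicate 1).

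The fit of D12 against D-2 held all 28 mTEC samples, whereas that of D6 held only D6 and D-2. With all 28 samples, 0 members were called at D6 against D-2. At D12 against D-2, 1 of 10 members passed the thresholds. Spink5 was 11.2, 13.5 and 13.3 FPKM, still below every D-2 sample, and passed the thresholds (log2 fold change -1.78, SE 0.32, adjusted p = 0.0067 in limma-voom), as 0.49% of all genes did. Leaving out any of the 6 samples of D-2 and D12 removed that call (adjusted p from 0.011 to 0.063). Krt10 was 5.45, 15.2 and 10.3 FPKM, also without overlap, at a log2 fold change of -1.68 (SE 0.66, adjusted p = 0.21 in limma-voom). Its partner Krt1 was 6.83, 5.11 and 8.40 FPKM at D12, within the D-2 samples but for 1, with a log2 fold change of -0.10 (SE 0.45, adjusted p = 0.97 in limma-voom) that became 0.33 without mTEC D12 replicate 2.

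The ratio of Krt10 to Krt1 in FPKM was 6.39, 5.92 and 6.51 at D-2 and 0.80, 2.98 and 1.22 at D12. At D6 it was 2.32, 4.46 and 3.42, and from D16 to D28 it was 4.03, 2.61, 3.17 and 3.64. Each D-2 ratio was above every ratio of D6, D12, the late samples and NPC (1.45 to 4.05), but the single samples of D2 (8.20) and D8 (8.73) were higher, and the difference was not tested because the pair was chosen after its values were seen. The ratio spread widely at D0, from 4.38 to 65.0, and at D3, from 1.43 to 29.8. The values of 4.38, 1.43 and 29.8 came from libraries of few genes, but that of 65.0 came from mTEC D0 replicate 1, which is not one of them. Dmkn was 23.0, 43.7 and 34.6 FPKM at D12 (log2 fold change -0.73, SE 0.27, adjusted p = 0.17 in limma-voom) and Sbsn was 14.7, 11.2 and 32.5 FPKM (log2 fold change -1.23, SE 0.54, adjusted p = 0.28 in limma-voom).

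From the early to the late phase all 10 genes had higher fitted levels in mTECs, and none passed the thresholds, as 0.062% of all genes did (11 genes). The early samples had a lowest, median and highest Krt1 of 0.45, 3.62 and 16.9 FPKM, and the late samples had 9.82, 10.5, 8.38 and 5.85 FPKM in time order. The log2 fold change of Krt1 was 1.17 (SE 0.30, adjusted p = 0.041 in limma-voom), the smallest adjusted p among the 10. Dmkn was 57.7, 63.7, 51.9 and 41.6 FPKM in the late samples (log2 fold change 0.77, SE 0.23, adjusted p = 0.065 in limma-voom). Krt10 was 39.6, 27.4, 26.5 and 21.3 FPKM (log2 fold change 0.96, SE 0.33, adjusted p = 0.11 in limma-voom).

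The other 7 members had log2 fold changes from 0.42 (Krtdap) to 1.42 (Cnfn) and adjusted p-values from 0.23 to 0.37, except Ivl at 0.55 (limma-voom). Early and late samples overlapped for every member. An unadjusted p under 0.05 was reached by 4 members and by 3541 of all 17743 genes tested (limma-voom). The edgeR quasi-likelihood test and DESeq2 called 0 members. The median log2 fold change was 0.87 over the 10 genes and -0.01 over all genes. The summed FPKM of the 10 genes was 247.2 to 331.7 in the late samples, 240.6 to 377.7 in NPC and 75.8 to 326.2 in the early samples. The late mean of Krt10 was 1.64 times that of NPC and the late mean of Ivl was 0.59 times, with single late samples per time point. The summed FPKM of the macrophage and dendritic cell markers was 17.8 to 132.0 in early and 81.3 to 218.5 in late mTECs (fitted levels higher for 7 of 8 tested, 6 with an unadjusted p under 0.05, median log2 fold change 1.73), and that of the cTEC markers was 369.4 to 2536 and 200.8 to 470.3 (lower for 6 of 6, 4 with an unadjusted p under 0.05, median -1.12). None of either list was called, and their part in the result was not tested.

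In cTECs, 8 of the 10 genes were abundant enough to test, and Ivl and Lor were not. At D6 against D-2 all 8 had lower fitted levels and none was called, against 1.34% of all 15845 genes. Spink5 was 7.34, 21.9 and 14.2 FPKM at D-2 and 3.55, 4.29 and 3.76 FPKM at D6, without overlap (log2 fold change -1.82, SE 0.37, adjusted p = 0.024 in limma-voom). It passed in the edgeR quasi-likelihood test (adjusted p = 0.0095) and in DESeq2 (adjusted p = 8.3e-06). Krtdap was 29.2, 60.9 and 23.4 FPKM and then 0, 7.02 and 11.5 FPKM (adjusted p = 0.10 in limma-voom). The adjusted p-values of Krt10, Sbsn, Dmkn and Flg were 0.087, 0.066, 0.066 and 0.053 (limma-voom). An unadjusted p under 0.05 was reached by 6 of the 8 and by 3686 of all 15845 genes (limma-voom). The edgeR quasi-likelihood test called 1 member and DESeq2 called 2, the second being Flg. In the same cTEC libraries the summed FPKM of 9 mTEC markers was 5821 to 8124 at D-2 and 3662 to 4261 at D6 (fitted levels lower for 9 of 9, 1 called, median log2 fold change -1.16), that of the 6 cTEC markers was 466.1 to 902.4 and 6023 to 7389 (6 of 6 called higher, median 3.67), and that of the 12 thymocyte markers was 22.4 to 24.7 and 65.5 to 91.5 (higher for 10 of 12, 0 called, 9 with an unadjusted p under 0.05). Their part in the levels of the members was not tested.

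The change from D-2 to D6 was not shown to differ between the cell types for any member (interaction in limma-voom, 0 members called, 0.00544% of all genes called). The interaction, mTEC minus cTEC, was -1.19 (SE 0.73, adjusted p = 0.54 in limma-voom) for Krt10, -0.99 (SE 0.49, adjusted p = 0.44 in limma-voom) for Spink5 and 3.94 (SE 1.53, adjusted p = 0.32 in limma-voom) for Krtdap, the member with an unadjusted p under 0.05. The edgeR quasi-likelihood test and DESeq2 also called 0 members. For D-2 against NPC in cTECs, 0 members and 0% of all genes were called (limma-voom, 1564 genes and 1 member at an unadjusted p under 0.05, 0 members by the other tools). The interaction for D-2 against NPC was 1.35 (SE 0.61, adjusted p = 0.67 in limma-voom) for Spink5, and again 0 members and 0% of all genes were called (1352 genes and 1 member at an unadjusted p under 0.05, and 0 members by DESeq2 and the edgeR quasi-likelihood test).

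From the early to the late phase in cTECs 7 of 8 members had higher fitted levels and 0 were called, against 1.41% of all genes (limma-voom). Dmkn was 14.3, 52.3, 10.99 and 19.6 FPKM in the late samples and had the smallest adjusted p (log2 fold change 2.64, SE 0.66, adjusted p = 0.014 in limma-voom). Krt10 (log2 fold change 1.49, adjusted p = 0.032) and Spink5 (log2 fold change 1.27, adjusted p = 0.041) were also higher on the fitted scale of limma-voom, and Cnfn was 2.63 (adjusted p = 0.17). Sbsn had a fitted log2 fold change of -0.35 that rested on cTEC D20, with 0.07 FPKM against 10.02, 8.61 and 12.3 FPKM in the other late samples. Without that sample it was 1.56 (adjusted p = 0.024 in limma-voom), and without all libraries of few genes it was 1.35 and passed the thresholds (adjusted p = 0.0056). An unadjusted p under 0.05 was reached by 4 members and by 4310 of all 15845 genes tested (limma-voom). The edgeR quasi-likelihood test and DESeq2 called 0 members. Over the same samples the summed FPKM of 9 mTEC markers was 3662 to 7978 in early and 4451 to 7331 in late cTECs (fitted levels higher for 7 of 9, 2 called, median log2 fold change 0.79), and that of 6 fibroblast markers was 61.9 to 328.2 and 260.5 to 631.6 (higher for 4 of 4 tested, 1 called, median 1.37). Their part in the result was not tested.

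Lists of related genes were followed beside the 10, comprising 58 other envelope genes, 14 desquamation genes and 12 transcription factors of keratinocyte differentiation. In mTECs at D6 against D-2, 33 of the 44 envelope genes tested and 12 of the 13 desquamation genes tested had lower fitted levels, at median log2 fold changes of -1.01 and -1.95, and 0 of either list were called (limma-voom, 15 and 7 with an unadjusted p under 0.05). Such a p was reached by 3596 of all 17743 genes tested. The kallikreins Klk5 and Klk7 had log2 fold changes of -2.12 and -2.13 (adjusted p = 0.11 and 0.063 in limma-voom). The transglutaminases that cross-link the envelope differed, Tgm3 at -1.83 and Tgm1 at -0.56 (adjusted p = 0.077 and 0.41 in limma-voom). At D12 against D-2 the log2 fold changes were 0.13 for Klk5 and 0.14 for Klk7 (adjusted p = 0.96 and 0.90 in limma-voom), and those of their inhibitor Spink5 are given above. Sprr2a2, a small proline-rich envelope gene, rose at D12 (log2 fold change 1.75, adjusted p = 0.0060 in limma-voom), from 382.2, 377.9 and 503.3 FPKM at D-2 to 1592, 1315 and 1660 FPKM. It has near-identical copies, so the reads of the copies may have been split.

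**Figure D3:**
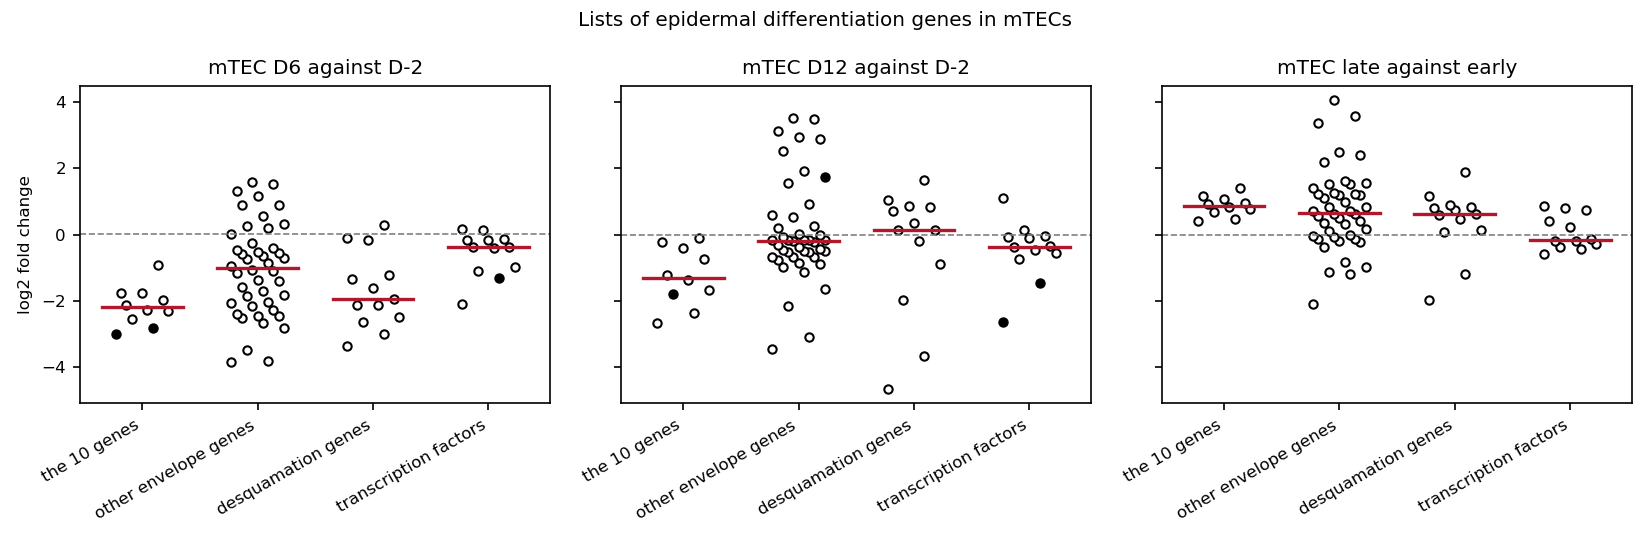
Fitted log2 fold changes (limma-voom) of the 10 genes and of 3 lists of related genes in mTECs. Each point is a gene, filled where it passed the thresholds, red bars are medians and the dashed line is the median of all genes. At D6 the medians are -2.20 for the 10 genes and -1.95 for the desquamation genes, and at D12 that of the desquamation genes is 0.14.

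Among the transcription factors, Klf4 and Maf were called in mTECs. Klf4, which is required for the epidermal barrier, was 335.0, 325.8 and 349.2 FPKM at D-2, 141.4, 71.7 and 38.3 FPKM at D6 and 61.3, 46.9 and 72.1 FPKM at D12. Its log2 fold change was -2.08 at D6 (SE 0.34, adjusted p = 0.015 in limma-voom) and it fell past the thresholds at D12 (-2.65, SE 0.34, adjusted p = 0.0017 in limma-voom). The D6 fit held only the D6 and D-2 samples and the D12 fit all 28 mTEC samples. Calls and adjusted p-values of the 2 fits are therefore not directly comparable. In the controls Klf4 was 105.1, 67.4 and 187.8 FPKM, so that D-2 was the highest group, as for Krt10 and Spink5. Maf fell at D6 (log2 fold change -1.31, adjusted p = 0.0094 in limma-voom) and at D12 (-1.45, adjusted p = 0.0070). Trp63, the master factor of stratified epithelia, had log2 fold changes of -0.15 at D6 and -0.39 at D12 (adjusted p = 0.64 and 0.37 in limma-voom). Grhl3, which drives barrier genes, was -0.17 at D6 and 1.12 at D12 (adjusted p = 0.82 and 0.54 in limma-voom).

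In mTECs against cTECs 29 of 44 envelope genes and 12 of 13 desquamation genes were called higher, at median log2 fold changes of 1.75 and 3.92 against 0.03 over all genes. Of all 18394 genes tested, 3033 were called higher and 864 lower. Only 25 of the 44 and 6 of the 13 also passed the filter of 0.5 FPKM in cTECs. The others, Klk5, Klk7 and Dsg1b among them, entered through mTECs alone, where they are high, so these counts and medians lean upward. The most separated envelope genes were Krt77 (4.66), Alox12b (4.18), a lipoxygenase of the lipid barrier, and Sprr1b (4.05), while Cers3 (-1.67), a ceramide synthase, was lower. Of the desquamation genes, Klk5 (5.55), Dsg1b (5.21), a desmosomal cadherin, and Klk7 (5.00) led, and of the 12 transcription factors 4 were called higher (Hopx at 2.02, Grhl3 at 1.89 and Zfp750 among them) and 2 lower (Maf at -1.09 among them). Tgm3 was 3.08 higher and Tgm1 0.51 (adjusted p = 0.10 in limma-voom). Klf4 did not pass (-0.16, adjusted p = 0.30 in limma-voom), and Trp63 was -0.54 (adjusted p = 4.5e-08), under the threshold on fold change.

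Across the 28 mTEC samples, Krt10 varied most closely with Spink5 and Dmkn. Pearson's r of log2(FPKM + 0.5) was 0.84 for Spink5 (Spearman's rho 0.83) and 0.75 for Dmkn (rho 0.70), each with a permutation p of 1e-05, the smallest that 100000 resamples can give, and an adjusted p of 4.5e-05 over 9 relations. Flg (r = 0.47, rho = 0.52, adjusted permutation p = 0.036 for r) and Krt1 (r = 0.45, rho = 0.48, adjusted permutation p = 0.039 for r) also passed 0.05. Krtdap had an r of 0.13 and rho of 0.17 (adjusted permutation p = 0.50 and 0.38), and Cnfn, Ivl, Sbsn and Lor had r from 0.19 to 0.37 and did not pass for r, while Sbsn (rho = 0.50, adjusted permutation p = 0.016) and Cnfn (rho = 0.46, adjusted permutation p = 0.023) passed for rho. Without the 2 samples farthest from the median of Krt10 (D6 replicate 3 and NPC replicate 2), r was 0.81 for Spink5, 0.77 for Dmkn, 0.40 for Flg and 0.37 for Krt1. It was then 0.395 for Ivl, 0.33 for Lor, 0.30 for Cnfn, 0.18 for Sbsn and 0.16 for Krtdap. Deviations from the time point means were compared in the 18 samples of replicated time points. Their r was 0.56 for Spink5, 0.48 for Dmkn, 0.46 for Cnfn, 0.32 for Krt1 and 0.20 for Flg. It was below 0 for Sbsn (-0.28), Krtdap (-0.21), Lor (-0.05) and Ivl (-0.015). These points share libraries and depth.

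**Figure D4:**
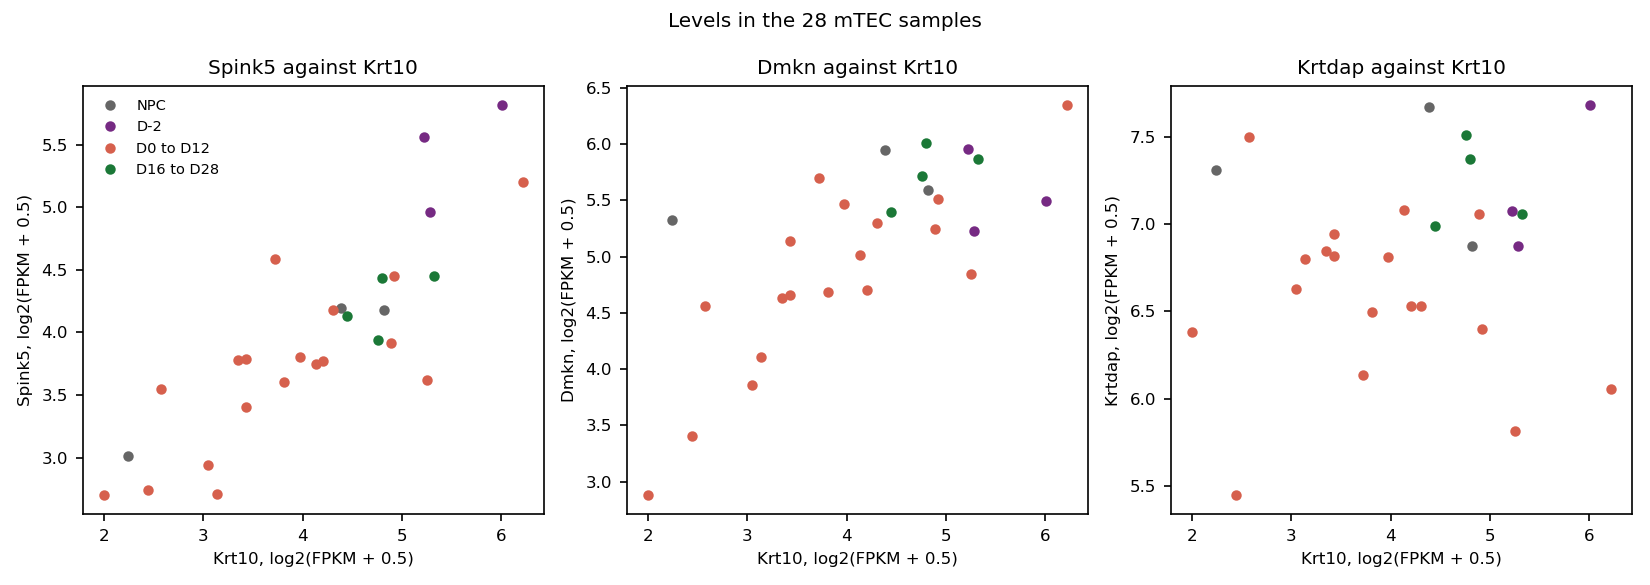
Levels of Spink5, Dmkn and Krtdap against Krt10 in the 28 mTEC samples, both axes as log2(FPKM + 0.5), colored by phase. Spink5 (r = 0.84) and Dmkn (r = 0.75) follow Krt10 across the phases, and Krtdap (r = 0.13) does not.

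Over all 45 pairs of the 10 genes, 41 had an r above 0, with a median of 0.42, and the lowest was -0.14, between Krt1 and Cnfn. Among the neighbours on chromosome 7, r was 0.56 for Sbsn with Dmkn, 0.47 for Sbsn with Krtdap and 0.40 for Krtdap with Dmkn, beside that median of 0.42. The highest of the 45 was the 0.84 of Krt10 with Spink5. Dmkn (r = 0.79) and Spink5 (r = 0.77) were closest to the mean of the other 9 members, and Cnfn (r = 0.07) was farthest. The expressed genes most like the mean of the 10 over the 28 samples were Liph (r = 0.85), Csf2rb2 (0.85), Serpina3n (0.82), Krt77 (0.81), Gsdma (0.81), Prkx (0.80), Ccl20 (0.80), Calm4 (0.80), Igtp (0.79) and Bdnf (0.79). Krt77 and Calm4 are on the list of other envelope genes, which was chosen without that ranking. Aire, the regulator of tissue-restricted genes, had an r of 0.47 with the mean of the 10, and Fezf2, another such regulator, had an r of -0.34.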

How the data were processed

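RNA from sorted mTECs and cTECs was sequenced as stranded poly-A libraries. The authors trimmed reads with Trimmomatic 0.35, aligned them to GRCm38 with STAR 2.5.1b and quantified genes with RSEM 1.2.28. The deposited expected counts are RSEM estimates without normalization, 91.4% to 98.0% of them whole numbers. The deposited FPKM are scaled by effective length and library size, and the deposited TPM to a constant total. The annotation release is not given in the sources used here, and GENCODE M21 symbols matched 50376 of 50600 identifiers without their version.

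Expected counts were rounded and tested with limma 3.58.1 (voom) in R 4.3.3 after TMM scaling (edgeR 4.0.16), keeping a gene whose FPKM averaged 0.5 or more over the 28 samples of its cell type (of either cell type for joint comparisons). A call needed a 2-fold difference or more and an adjusted p no larger than 0.01. The fits of D6 against D-2 and of D-2 against NPC held only those samples, and those of D0 and D12 against D-2 held all 28 mTEC samples. Correlations used log2(FPKM + 0.5) and 100000 permutations (Python 3.11.15, NumPy 2.4.6, pandas 2.3.3). Scripts were tested on simulated data. Alternatives were the edgeR quasi-likelihood test, DESeq2 1.42.0, limma-trend on log2(FPKM + 0.5), RLE or no scaling, no filter, an adjusted p of at most 0.05, quality weights, a spread shared by all 28 samples, D12 as late, replicate blocks, and leaving out samples. The members and lists were chosen with earlier results of these data known. Besides the members, the genes named were, per list, up to 3 called genes with the largest increase and decrease per mTEC comparison, with Klf4, Grhl3, Trp63, Klk5, Klk7, Tgm1, Tgm3, Aire and Fezf2, and the 10 genes most like the mean of the members. Gm11940, Tmem147os, Prss16 and the ratio of Krt10 to Krt1 were chosen after values were seen. Libraries of a group are separate mice. One gene that the rule would name is not reported here.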

Additional observations from a re-analysis of the deposited data

Results flagged for a closer look

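Of 20 groups of 4 late samples examined (10 genes in each cell type), 2 held a sample far from the others by Dixon's test, which chance gives in about 1 of 20 groups. Flg was 17.97 FPKM in late mTECs at D24, against 4.48 to 6.65 FPKM in the other 3 late samples. In TMM-scaled CPM the same sample was 13.8, within the 10.5 to 18.1 of the others. Lor was 0.07 FPKM in late cTECs at D16 and was listed at 0 in the other 3.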

How the results depend on the processing

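The fold changes of all 10 genes kept their direction in mTECs at D6 against D-2, late against early and against cTECs under every alternative run. In other comparisons this did not hold: 5 of 10 members changed sign under at least 1 alternative at D-2 against NPC and 5 of 10 at D0 in mTECs, and 5 of 8 at D-2 against NPC in cTECs. The largest of these in mTECs at D-2 against NPC was Cnfn, whose log2 fold change of 2.87 ranged from -0.65 to 4.92.

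The number of members called moved as follows, and the causes were not tested beyond the smaller samples of the fits that left one out. At D-2 against NPC in mTECs, DESeq2 and the fit of all 28 samples called 1. At D6 against D-2 in mTECs, DESeq2 called 6, the edgeR quasi-likelihood test, an adjusted p of at most 0.05 and quality weights 3 each, limma-trend 0 and the fit of all 28 samples 0, and leaving out 1 sample gave 0 to 1. With that shared spread the adjusted p was 0.58 for Krt10 and 0.016 for Spink5. At D0, quality weights called 1. At D12, the edgeR quasi-likelihood test and limma-trend called 0, and leaving out 1 sample gave 0. Krt1 at D12 ranged from -0.54 to 0.33 when 1 sample was left out. In mTECs late against early, an adjusted p of at most 0.05 gave 1.

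In cTECs at D6 against D-2, the edgeR quasi-likelihood test called 1, DESeq2 2, no filter 1, an adjusted p of at most 0.05 gave 1, the replicate block 1 (Spink5), and leaving out 1 sample 0 to 1. In cTECs late against early, no TMM gave 1, an adjusted p of at most 0.05 gave 3, quality weights 1, leaving out 1 sample 0 to 1 and leaving out the libraries of few genes 1. Sbsn there turned to 0.82 in the edgeR quasi-likelihood test, 0.87 in DESeq2, 1.36 with quality weights, -1.38 to 1.56 without 1 sample and 1.35 without the libraries of few genes. In mTECs against cTECs, with 8 members called in limma-voom, the edgeR quasi-likelihood test, DESeq2 and limma-trend called 9, and no filter and leaving out the libraries of few genes gave 7. With a pseudocount of 0.1, 2 genes passed the correlation with Krt10 in place of 4.

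The number of genes called among all genes also moved. At D6 against D-2 in mTECs it was 53 in limma-voom, 470 in DESeq2, 91 in the edgeR quasi-likelihood test, 105 with no filter, 257 at an adjusted p of at most 0.05, 286 with quality weights, 90 with the replicate block, 2 with all 28 samples, 0 in limma-trend and 0 to 11 without 1 sample. DESeq2 called 165 genes at D-2 against NPC in mTECs, 96 in cTECs, 11 at D0, 144 at D12 (87 in limma-voom), 757 at D6 in cTECs (213) and 126 in the interaction at D6 (1). Late against early, the count was 11 in mTECs, between 2 (edgeR quasi-likelihood test and limma-trend) and 184 (adjusted p of at most 0.05), and 223 in cTECs, between 0 (D12 counted as late) and 1045 (quality weights). At D12 the edgeR quasi-likelihood test called 0 genes, limma-trend 1 and no filter 305.

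Same replicate numbers at different time points were different mice, and the deviations of such pairs correlated at -0.14 to 0.08. The replicate block in mTECs called 0 members at D-2 against NPC and 2 at D6 against D-2. Samples of cTECs and mTECs with the same title number correlated at -0.14 to 0.14 over 16 pairs, and the block by mouse called 8 members in mTECs against cTECs and 0 in both interactions. The alternative without the libraries of few genes was chosen after seeing the data. Low counts limit Ivl, Lor, Flg and Cnfn, which were listed at 0 in some mTEC libraries (Sbsn in 1), and late time points have 1 sample each.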
